A study of Mus musculus with 40 samples.

Results

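The genes of oxidative phosphorylation were followed as a group by RNA-seq in mouse cardiac fibroblasts, the cells that build and remodel the connective tissue of the heart. A protein-coding gene was taken as a member when its symbol begins with Nduf, Uqcr, Atp5, mt-Nd, mt-Co, mt-Cytb or mt-Atp, or when it is Sdha, Sdhb, Sdhc, Sdhd, Cyc1 or a Cox4 to Cox8 subunit, and when it had at least 10 counts in total over 40 libraries. Of 108 genes with such symbols, 100 reached this count, and they were among 25210 genes tested of 55414 in the count table. Of the 100 members, 93 are encoded in the nucleus and 7 in mitochondrial DNA. The nuclear members comprise 36 genes of complex I, 8 of its assembly factors, 4 of complex II, 9 of complex III, 19 of complex IV and 17 of complex V. The rule used symbols and total counts, and no comparison between groups.

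All fibroblasts came from hearts of adult C57BL/6J TAK1fl/fl mice, in which loxP sites flank exon 2 of Map3k7, the gene for the kinase TAK1, so that every group carried this allele. Cells of passage 1, grown in medium with serum and bFGF, received an adenovirus in which the CMV promoter, which is not specific to a cell type, drives either Cre recombinase (iCre) or β-galactosidase (LacZ, the control virus). They were then serum-starved and kept for 24 h without ligand (Con) or with bFGF at 20 ng/ml, TGFβ at 10 ng/ml, IL-1β at 15 ng/ml or TNFα at 10 ng/ml. Each of the 10 groups held 4 replicates from male mice. Ligands were compared with Con in LacZ fibroblasts to ask how each ligand acts when TAK1 is present, and iCre was compared with LacZ under each ligand to ask what TAK1 deletion changes. RNA was measured in bulk, so fewer cells of a type and less RNA per cell cannot be told apart.

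Electrons from NADH enter the respiratory chain at complex I and those from succinate at complex II. They pass through complex III and cytochrome c to complex IV, which reduces oxygen, and complex V (ATP synthase) uses the proton gradient that complexes I, III and IV build. Complex II is made from nuclear genes alone, whereas the other complexes join nuclear subunits with subunits translated inside the mitochondrion from transcripts of mitochondrial DNA, so that both genomes have to supply their parts. In cardiac fibroblasts, energy metabolism is known to change when the cells are activated to build matrix.

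Library totals lay between 25360947 and 66160732 counts. Map3k7 counts, which include reads outside exon 2 and so do not check its excision, were lower in iCre than in LacZ in all 5 pairs of groups, without overlap between the 4 and 4 libraries. They ranged from 143.9 to 251.1 CPM (counts scaled to library size, here with TMM factors) in LacZ and from 121.7 to 160.2 CPM in iCre libraries, and the difference passed the test with TGFβ, IL-1β and TNFα (edgeR adjusted p = 0.00088, 0.000274 and 0.000829) and not in Con or with bFGF (edgeR adjusted p = 0.137 and 0.351). All 10 fibroblast markers were detected in every library, with Col1a1 never below 2042 CPM, while of 10 cardiomyocyte markers Myh6 and Nppa held the fewest, 3 and 5 counts over all 40 libraries, and Tnnt2 the most, at up to 110 CPM. Markers of other cells were also present, with the macrophage marker Lyz2 at 8.73 to 130 CPM and the pericyte marker Rgs5 at 60.4 to 1366 CPM. The 12 iCre libraries given TGFβ, IL-1β or TNFα stood apart from the other 28 in how counts depend on GC content. The slope of log2 CPM on transcript GC, over 12291 genes, lay between 0.203 and 0.325 per 10% GC in these 12 and between −0.236 and −0.00446 in the others. The same 12 carry the final numbers 29 to 40 in the library names and the other 28 the numbers 1 to 28, so that this property and these 3 groups cannot be told apart. The Map3k7 test passed under these 3 ligands alone, and it is given here without a correction for GC.

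Transcript GC content was lower in the mitochondrially encoded members, with some overlap. The transcripts of the 7 mitochondrially encoded members held 34.1% to 39.9% GC, with a median of 37.1%, those of the 93 nuclear members 36.7% to 63.3% with a median of 51%, and those of 16762 protein-coding genes tested had a median of 50.3%. The nuclear members Cox7b2, Cox7c and Ndufaf4 lay within the mitochondrial range. Stretches of read length from the start of the coding sequence, taken from GENCODE M21 transcripts, are shown in lower case with no base marked, as examples of both genomes. They belong to mt-Nd1 (a membrane subunit of complex I, chromosome M, 2751 to 3707 on GRCm38) at 39.6% GC and Cox5a (a nuclear subunit of complex IV, chromosome 9, 57521274 to 57532426, plus strand) at 75.2% GC. The whole transcripts lie closer, at 37.62% for mt-Nd1 and 48.99% for Cox5a. The third stretch belongs to mt-Co2, the copper-binding subunit of complex IV (chromosome M, 7013 to 7696), at 37.6% GC, and is shown because it also occurs letter for letter in Gm28661, a nuclear copy of mitochondrial DNA on chromosome 1.
mt-Nd1: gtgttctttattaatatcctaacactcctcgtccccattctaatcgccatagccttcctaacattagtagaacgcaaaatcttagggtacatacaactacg
Cox5a: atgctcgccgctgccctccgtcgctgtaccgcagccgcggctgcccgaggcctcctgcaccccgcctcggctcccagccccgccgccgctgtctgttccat
mt-Co2: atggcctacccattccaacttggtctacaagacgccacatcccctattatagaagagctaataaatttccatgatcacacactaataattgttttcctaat

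The remaining 8 genes with matching symbols were left out for low counts, among them mt-Co2 with 1 count and mt-Co3, mt-Atp6, mt-Atp8, mt-Nd3 and mt-Nd4l with 0. Of all windows of read length in these transcripts, 99.49% in mt-Co2, 99.85% in mt-Co3, 99.48% in mt-Atp6, 97.58% in mt-Nd3 and 98.48% in mt-Nd4l occur in another annotated gene, whereas mt-Atp8 shares none. Among the members that were counted, mt-Nd4 shares 60.72% of its windows and mt-Co1 30.66%, while mt-Nd1, mt-Nd5, mt-Nd6 and mt-Cytb share none. Their levels are therefore uncertain for mt-Nd4 and mt-Co1, and whether shared sequence accounts for the missing counts was not tested. Of the nuclear members, Atp5l shares 68.69% of its windows and Cox5a 13.21%. mt-Nd6 lies on the minus strand and overlaps mt-Nd5, and the strand setting of the counting is not given in the sources used here, so reads in the overlap cannot be assigned.

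Promoter sequence was looked at for letters of factors known for their place at nuclear respiratory genes. RefSeq windows around the start site on GRCm38.p6, most of each window upstream of the start, were matched for 74 of the 100 members. The letters GCGCATG, the core of a site of NRF1, were found on either strand in windows of 15 of these 74 members (20.3%). They were found for 1192 of all 27025 genes with a window (4.41%), which were not limited to the genes tested. The letters CCGGAAG, a site of ETS factors such as GABP also searched on both strands, were found for 18 of 74 members (24.3%) and 2683 of 27025 genes (9.93%), and 6 members held both (8.11% of 74). A match is a description of letters and says nothing of binding. The stretches of 60 bases around the NRF1 letters, in capitals, are shown for Cox6a1 (chr5:115349088-115349147, minus strand, letters ending 156 bases before the start) and Ndufaf4 (chr4:24897943-24898002, plus strand, 107 bases before the start), since both genes are named in several of the comparisons that follow.
Cox6a1: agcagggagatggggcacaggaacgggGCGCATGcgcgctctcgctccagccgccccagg
Ndufaf4: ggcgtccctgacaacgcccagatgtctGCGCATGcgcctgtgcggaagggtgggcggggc

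In LacZ fibroblasts without ligand, 6 of the 7 mitochondrially encoded members stood above all nuclear members when levels were expressed per length (mean CPM per kb of exon). mt-Co1, the catalytic subunit of complex IV, was highest at 1983 CPM per kb, followed by mt-Cytb, the cytochrome b of complex III, at 1248 CPM per kb and mt-Nd1 at 828.3 CPM per kb. mt-Nd6, the only member on the other strand of mitochondrial DNA, was at 5.671 CPM per kb. The median was 719.3 CPM per kb over the mitochondrially encoded and 28.36 CPM per kb over the nuclear members. The highest nuclear members were the small subunits of complex IV Cox8a at 169.5, Cox6a1 at 143 and Cox6b1 at 131.9 CPM per kb, followed by Cox4i1 at 125.9 and the α-subunit of ATP synthase, Atp5a1, at 123.2 CPM per kb. Length here is that of all annotated exons together, which exceeds the longest transcript more in some genes than in others. It was 1550 against 765 bases in Cox4i1 and 619 against 550 bases in Cox8a. The order and the median of the nuclear members therefore depend on the length used. Isoforms known from heart and skeletal muscle were at the low end, with Cox7a1 at 1.393, Cox8b at 0.9678 and Cox6a2 at 0.4285 CPM per kb.

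The division of counts between the genomes differed with the group. Without ligand, the nuclear members held 0.623% ± 0.0464 of the counts (SD, n = 4) in LacZ and 0.600% ± 0.0382 in iCre libraries, and the mitochondrially encoded members 0.847% ± 0.0576 and 0.859% ± 0.164. The nuclear counts were thus 0.738 ± 0.0766 times the mitochondrial counts in LacZ and 0.723 ± 0.1795 times in iCre. With bFGF this ratio was 0.868 ± 0.181 in LacZ and 0.707 ± 0.110 in iCre. With TGFβ it was 0.844 ± 0.178 in LacZ and 1.79 ± 0.332 in iCre, with IL-1β 0.608 ± 0.0666 and 1.55 ± 0.322, and with TNFα 0.660 ± 0.0506 and 2.11 ± 0.605. Over the 12 iCre libraries of these ligands the ratio ran from 1.17 to 2.68 and over the other 28 from 0.559 to 1.11, without overlap. The difference lay mostly in the mitochondrial share, which ran from 0.292% to 0.612% in the 12 and from 0.566% to 1.12% in the other 28 libraries.

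**Figure D1:**
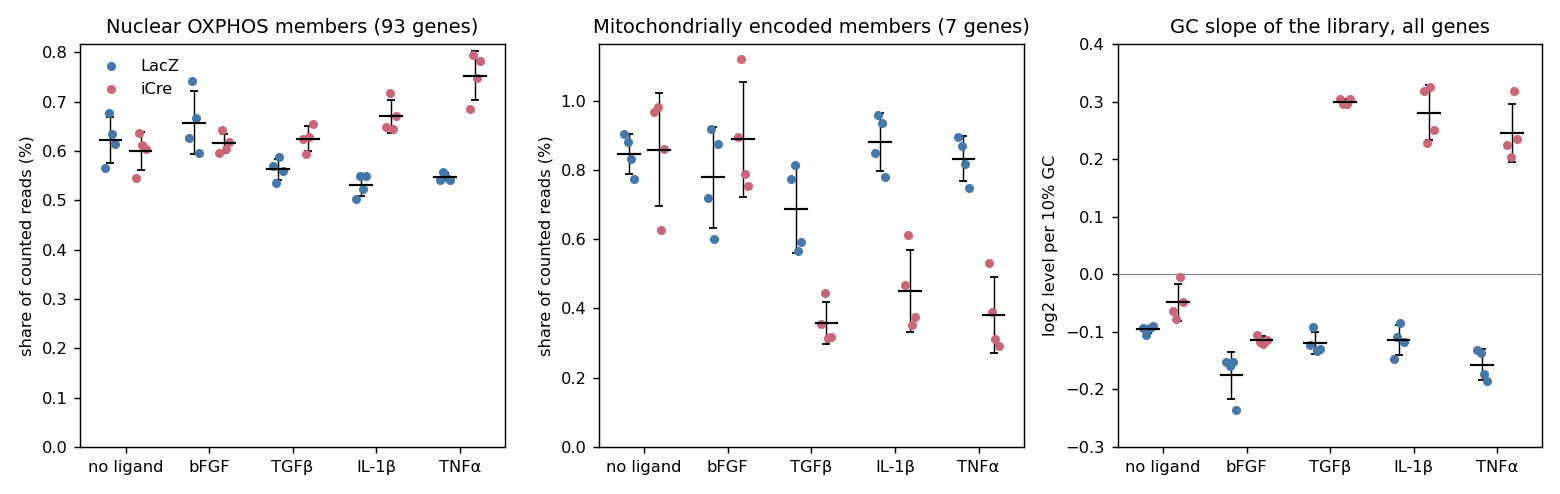
Share of library counts held by the 93 nuclear members (left, percent), share held by the 7 mitochondrially encoded members (middle, percent) and slope of log2 CPM on transcript GC (right, log2 per 10% GC) in each library, by ligand, for LacZ (blue) and iCre (red); bars are the mean ± SD of 4 libraries. The 12 iCre libraries given TGFβ, IL-1β or TNFα hold 0.292% to 0.612% mitochondrial counts and are the libraries with a positive slope.

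The first question was how the ligands act on these genes while TAK1 is present. In LacZ fibroblasts TGFβ changed the most members, mainly upward and mainly nuclear: 29 of 93 nuclear members were higher and 8 lower than in Con at an adjusted p of at most 0.05 (edgeR), against 17.5% higher and 19.3% lower among all genes tested. The median log2 fold change of the nuclear members was 0.16 and that of all genes −0.17. Of complex III 5 of 9 members were higher, of complex V 8 of 17 with 1 lower, of complex I 9 of 36 with 2 lower, and of complex IV 4 of 19 with 5 lower, while in complex II only Sdhb, its iron-sulfur subunit, was higher (log2 fold change 0.36 ± 0.08 SE, edgeR adjusted p = 0.00419). The upward direction held relative to other genes but depended on the scaling. When libraries were scaled to total counts, an alternative chosen after seeing the data, 8 nuclear members were higher (8.83% of all genes) and 45 lower (33.5% of all genes), and the median was −0.26 against −0.57 over all genes. The nuclear median thus lay above that of all genes by 0.325 with TMM and by 0.307 with total counts on the log2 scale. Markers of cell types moved as well: the summed level of 10 fibroblast markers was 30434 to 47665 CPM in Con and 57153 to 66622 CPM with TGFβ, and that of 3 pericyte and smooth muscle markers 98.09 to 549.2 and 660.1 to 1165 CPM, both without overlap. Of these lists, 3 and 1 genes were higher and 3 and 0 lower with TGFβ, and their part in the members' differences was not tested.

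Atp5g1, which codes for the ring subunit c of ATP synthase, and Ndufaf4, an assembly factor of complex I, were among the members with the largest rise. Atp5g1 was at 20.85, 23.83, 23.14 and 21.62 CPM in the 4 Con libraries and at 66.83, 63.88, 56.38 and 55.12 CPM with TGFβ. Every library with TGFβ lay above every Con library (log2 fold change 1.46 ± 0.10 SE, edgeR adjusted p = 3.58e-06). Ndufaf4 was at 8.707, 7.752, 6.335 and 8.077 CPM in Con and at 24.01, 19.78, 23.21 and 22.73 CPM with TGFβ, again without overlap (log2 fold change 1.56 ± 0.13 SE, edgeR adjusted p = 1.05e-05). Uqcrq, a small subunit of complex III, rose from 42.28 ± 4.07 CPM (SD, n = 4) to 100.1 ± 11.74 CPM (log2 fold change 1.26 ± 0.11 SE, edgeR adjusted p = 1.93e-05), and Atp5b, the catalytic β-subunit of ATP synthase, from 460.9 ± 17.15 to 892.3 ± 66.7 CPM (log2 fold change 0.97 ± 0.10 SE, edgeR adjusted p = 4.04e-05). Further members that rose were Cyc1, the cytochrome c1 of complex III, by 0.71, Cox6a1 by 0.69, Ndufs1, the largest iron-sulfur subunit of complex I, by 0.585, Uqcrc1, a core subunit of complex III, by 0.46 and Atp5a1 by 0.40 on the log2 scale. With total-count scaling, the log2 fold changes of Uqcrc1 (0.04), Atp5a1 (−0.01), Ndufs1 (0.17) and Sdhb (−0.05) did not pass the test.

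Cox5a, a nuclear subunit of complex IV, was at 43.67, 54.74, 55.49 and 47.99 CPM in Con and at 89.59, 74.63, 85.39 and 76.45 CPM with TGFβ in LacZ fibroblasts. The groups did not overlap, and the log2 fold change was 0.71 ± 0.10 SE (edgeR adjusted p = 0.00042), or 0.29 (adjusted p = 0.0526) with total-count scaling. Its levels with bFGF (56.02 ± 8.55 CPM), IL-1β (55.93 ± 2.56 CPM) and TNFα (56.48 ± 1.76 CPM) overlapped those in Con (50.47 ± 5.65 CPM; SD, n = 4), and none of these differences passed the test (edgeR adjusted p = 0.455, 0.253 and 0.213).

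The members that fell with TGFβ were mostly isoforms of complex IV and single subunits of complex I. Cox6b2, an isoform best known from testis, was at 9.176, 9.091, 17.99 and 17.29 CPM in Con and at 1.435, 3.74, 6.063 and 5.19 CPM with TGFβ (log2 fold change −1.70 ± 0.41 SE, edgeR adjusted p = 0.00756), with replicates 3 and 4 above replicates 1 and 2 in both groups. It was also lower with IL-1β (log2 fold change −1.49, edgeR adjusted p = 0.00813) and TNFα (−1.22, adjusted p = 0.0322). Ndufa6, an accessory subunit of complex I, fell from 85.98 ± 6.73 CPM in Con to 51.21 ± 2.38 for TGFβ, 55.7 ± 1.31 for IL-1β and 50.69 ± 4.93 for TNFα, without overlap in each case (log2 fold changes −0.73, −0.61 and −0.76; edgeR adjusted p = 6.02e-05, 0.000343 and 0.000279). Ndufb11, another accessory subunit of complex I, fell with the same 3 ligands by 0.37, 0.30 and 0.45 on the log2 scale (edgeR adjusted p = 0.0046, 0.00898 and 0.000781). Cox7a2l, a factor of supercomplexes of complexes III and IV, fell with TGFβ by 0.36 and with IL-1β by 0.30.

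The heart and muscle isoforms moved apart. Cox6a2 rose with TGFβ from 0.1563, 0.08784, 0.1952 and 0.7263 CPM to 2.29, 2.07, 1.976 and 2.765 CPM (log2 fold change 3.02 ± 0.56 SE, edgeR adjusted p = 0.0017). Cox7a1 fell from 0.7453 ± 0.2987 to 0.2876 ± 0.1 CPM (log2 fold change −1.35 ± 0.41 SE, edgeR adjusted p = 0.0241). Cox8b held 63 counts in the 4 Con libraries, 1 with TGFβ and 1 with IL-1β, a rate in Con that was 65.2 times (95% interval 11.3 to 2617) and 54.4 times (9.42 to 2183) that with the ligand, where the exact intervals cover counting error only. With bFGF it held 17 and with TNFα 11 counts. The summed level of the cardiomyocyte markers, of which 8 of 10 were tested, fell in the same groups, from 17.96 to 112.4 CPM in Con to 3.834 to 15.04 with TGFβ, 1.396 to 2.883 with IL-1β, 2.901 to 7.833 with TNFα and 4.529 to 31.41 with bFGF. Most of that sum is Tnnt2, and its part in the fall of Cox8b and Cox7a1 was not tested.

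**Figure D2:**
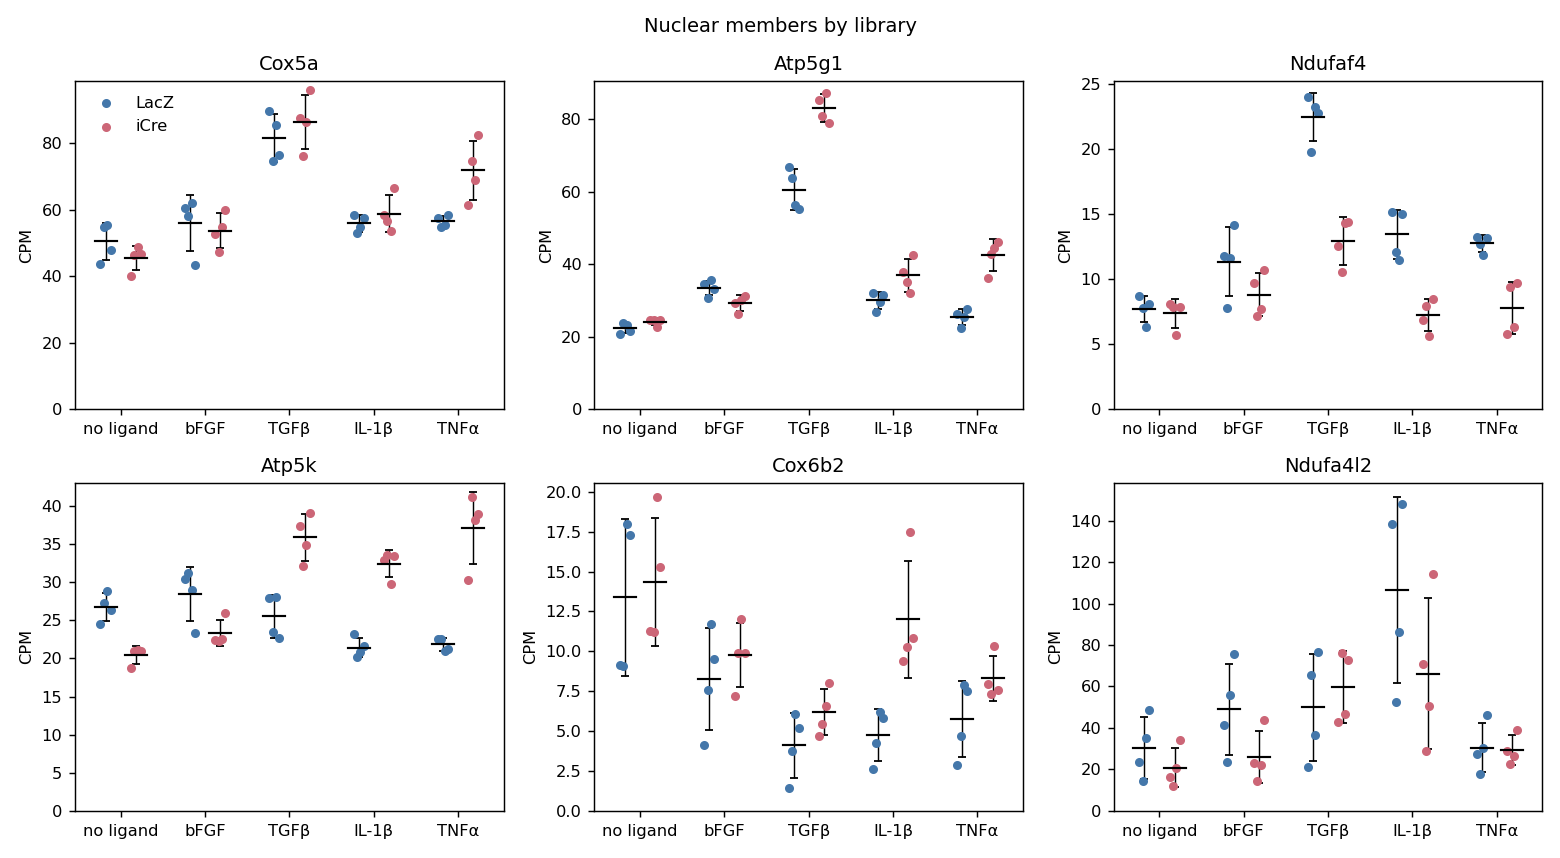
CPM (linear axis from 0) of Cox5a, Atp5g1, Ndufaf4, Atp5k, Cox6b2 and Ndufa4l2 in each library, by ligand, for LacZ (blue) and iCre (red); bars are the mean ± SD of 4 libraries. Atp5g1 with TGFβ lies between 55.12 and 66.83 CPM in LacZ, above all 4 Con libraries, and Ndufaf4 with TGFβ, IL-1β and TNFα is lower in iCre than in LacZ.

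With bFGF, IL-1β or TNFα, fewer members passed the test. Against Con, bFGF raised 9 nuclear members and lowered 0 (7% and 4.64% of all genes), among them Atp5g1 (log2 fold change 0.60 ± 0.09 SE, edgeR adjusted p = 0.00322), Atp5b (0.41, adjusted p = 0.0166) and the complex I subunits Ndufa12 (0.50, adjusted p = 0.00906) and Ndufs8 (0.43, adjusted p = 0.0108). With total-count scaling Atp5b did not pass (0.35, adjusted p = 0.0501). The 9 became 0 without replicate 3, 1 without replicate 1 and 1 without replicate 4. IL-1β raised 3 nuclear members and lowered 12 (11.1% and 9.55% of all genes), and TNFα raised 4 and lowered 9 (10.9% and 10.4%). The share of members raised was therefore below that of all genes with both cytokines, and the share lowered near it. Without replicate 3 the calls numbered 5 for each cytokine, and without replicate 4 they were 6 and 5. Fits without a replicate number hold fewer libraries, and their share of all genes called is not given here.

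Ndufaf4 rose with both cytokines, to 13.43 ± 1.91 CPM under IL-1β and 12.75 ± 0.66 CPM under TNFα from 7.717 ± 1.00 CPM in Con (log2 fold changes 0.81 and 0.73, edgeR adjusted p = 0.00326 and 0.00209). Ndufa4l2, a paralog of the complex IV subunit Ndufa4 known as a target of hypoxia signalling, was at 23.69, 14.19, 35.2 and 48.75 CPM in Con and at 138.5, 52.63, 86.35 and 147.9 CPM with IL-1β (log2 fold change 1.81 ± 0.41 SE, edgeR adjusted p = 0.0109). Each of the 4 pairs of libraries with the same number rose, while Con replicate 4 came close to the lowest library with IL-1β. Uqcrh, the hinge subunit of complex III, fell with IL-1β (log2 fold change −0.36, edgeR adjusted p = 0.0112) and TNFα (−0.50, adjusted p = 0.00324), as did Atp5k, a small membrane subunit of ATP synthase (−0.31 and −0.29, adjusted p = 0.031 and 0.025). The isoforms Cox4i1, Cox4i2, Cox6b1, Cox7a2, Cox8a and Ndufa4 did not pass the test with any ligand, but for most of them this depended on the scaling. With total-count scaling Cox4i1 fell with TGFβ, IL-1β and TNFα (log2 fold changes −0.48, −0.39 and −0.28; edgeR adjusted p = 0.00131, 0.0184 and 0.0427) and Cox8a with TGFβ (−0.38, adjusted p = 0.0226). Under this scaling Cox7a2 fell with IL-1β and TNFα (−0.45 and −0.32; edgeR adjusted p = 0.00538 and 0.0312), as did Ndufa4 (−0.315 and −0.34; adjusted p = 0.0119 and 0.00542).

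With these ligands the scaling moved the number of calls but not the sign of the nuclear median. That median was −0.0451 with TMM and −0.272 with total counts for IL-1β. It was −0.0803 and −0.224 for TNFα, and 0.111 and 0.0488 for bFGF. With total counts, 2 nuclear members rose and 38 fell under IL-1β (5.69% and 17.7% of all genes), 1 and 36 with TNFα (7.2% and 15.9%), and 3 and 0 with bFGF (5.18% and 5.4%). The median of all genes moved with the scaling from −0.10 to −0.32 for IL-1β and from −0.08 to −0.22 for TNFα. With the replicate number as a block, the counts were 23 higher and 3 lower with bFGF (14.2% and 13.1% of all genes), 29 and 9 with TGFβ (19.6% and 22.5%), 6 and 17 with IL-1β (16.3% and 17.3%) and 8 and 24 with TNFα (17.2% and 18.4%).

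Of the 7 mitochondrially encoded members, 1 was higher with TGFβ and 1 with IL-1β in LacZ fibroblasts and 0 were lower. Of all genes 17.5% and 11.1% were called higher, so these counts were near the background. mt-Nd6 rose with TGFβ from 2.054, 2.35, 3.389 and 3.98 CPM to 7.533, 11.88, 4.273 and 5.758 CPM (log2 fold change 1.34 ± 0.33 SE, edgeR adjusted p = 0.00945), and mt-Nd1 rose with IL-1β from 900, 788.7, 807.9 and 674.1 CPM to 1236, 1115, 1116 and 1097 CPM (log2 fold change 0.54 ± 0.12 SE, edgeR adjusted p = 0.00946). Both differences left no overlap between the groups, and both single calls were lost in some fits that leave out a replicate number. No member of the 7 passed with bFGF or TNFα in edgeR, where 0 and 2 had an unadjusted p under 0.05, while DESeq2 called 0 and 2 (9.98% and 14% of all genes higher). The median log2 fold change of the 7 was 0.03 with bFGF, 0.21 for TGFβ, 0.28 for IL-1β and 0.15 for TNFα. With the replicate block, 0 of the 7 were higher and 1 lower for bFGF, where 13.1% of all genes were lower. Higher were 3 with TGFβ, 6 for IL-1β and 4 for TNFα, where 19.6%, 16.3% and 17.2% of all genes were higher. With the block the calls for TGFβ, IL-1β and TNFα thus lay above the share of all genes. With total-count scaling the TGFβ median was −0.21, with 1 higher and 2 lower, and the bFGF median −0.03.

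The second question was what TAK1 deletion changes under each ligand. In Con and with bFGF, 0 of the 100 members passed the test between iCre and LacZ, where 0.0754% and 0% of all genes did. An unadjusted p under 0.05 was found for 43 nuclear members in Con and 31 with bFGF, for 0 mitochondrially encoded members in both, and for 3538 and 2585 of the 25210 genes tested. DESeq2 called 24 and 13 nuclear members, all lower in iCre, where 2.36% and 0.881% of all genes were called lower. With the replicate block, 0 nuclear members were higher and 35 lower in Con (6.79% and 7.7% of all genes), and 0 were higher and 26 lower with bFGF (6.64% and 7.22%), while 2 mitochondrially encoded members were higher with bFGF. The median log2 fold change of the nuclear members was −0.19 in Con and −0.13 with bFGF. Cell type markers moved with the block as well. Of 10 fibroblast markers 2 were higher and 7 lower in Con and 0 and 5 with bFGF, of 5 leukocyte markers 3 and 2 were lower, and of 3 pericyte and smooth muscle markers 2 were higher in each, with 1 lower in Con. The pericyte sums ran from 283.7 to 890.4 CPM in iCre and from 98.09 to 549.2 CPM in LacZ in Con, and the fibroblast sums from 20809 to 37001 and from 30434 to 47665 CPM. With bFGF the pericyte sums ran from 238.7 to 1102 and from 97.17 to 554.1 CPM. The groups overlapped in each case, and the part of these markers was not tested. Among the members lower with the block in Con were Ndufa4 (log2 fold change −0.40, edgeR adjusted p = 0.000358 with the block) and Cox7a2 (−0.31, adjusted p = 0.00345).

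With TGFβ, IL-1β and TNFα the genomes parted: the mitochondrially encoded members had lower levels in iCre, and most nuclear members that passed had higher levels. All 7 mitochondrially encoded members fell with TGFβ and with TNFα, and 6 of 7 fell with IL-1β, where lower calls made up 5.87%, 12.6% and 8.98% of all genes. Their median log2 fold changes were −1.16, −1.23 and −1.10. After a correction for transcript GC, given in full further on, 0 of the 7 passed with any of the 3 ligands, and the medians were −0.13, −0.25 and −0.28. Of the 93 nuclear members, 12 were higher and 2 lower for TGFβ, 32 and 2 for IL-1β, and 62 and 2 for TNFα, against 2.51%, 7.14% and 14.8% of all genes higher. Their medians were 0.18, 0.21 and 0.41, with all-gene medians of 0, 0.04 and 0. Cell type markers moved in the same comparisons. Of 10 fibroblast markers, 2 fell with TGFβ and 3 with IL-1β, while TNFα had 5 lower and 2 higher. Their summed level was 15351 to 23387 CPM in iCre against 25795 to 34599 CPM in LacZ with TNFα, and 22845 to 35690 against 36618 to 69714 CPM with IL-1β, both without overlap. With TGFβ the sums overlapped (46878 to 61773 and 57153 to 66622 CPM). Of 3 pericyte and smooth muscle markers 1, 1 and 2 were higher and 0 lower, with overlapping sums of 300.7 to 1153 CPM in iCre and 71.72 to 367.9 CPM in LacZ for TNFα. The sums of cardiomyocyte markers were 4.12 to 17.77 CPM in iCre and 1.396 to 2.883 CPM in LacZ with IL-1β, without overlap. With TGFβ and TNFα they overlapped, as did the endothelial and leukocyte sums with each of these ligands. The part of these markers in the members' differences was not tested.

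**Figure D3:**
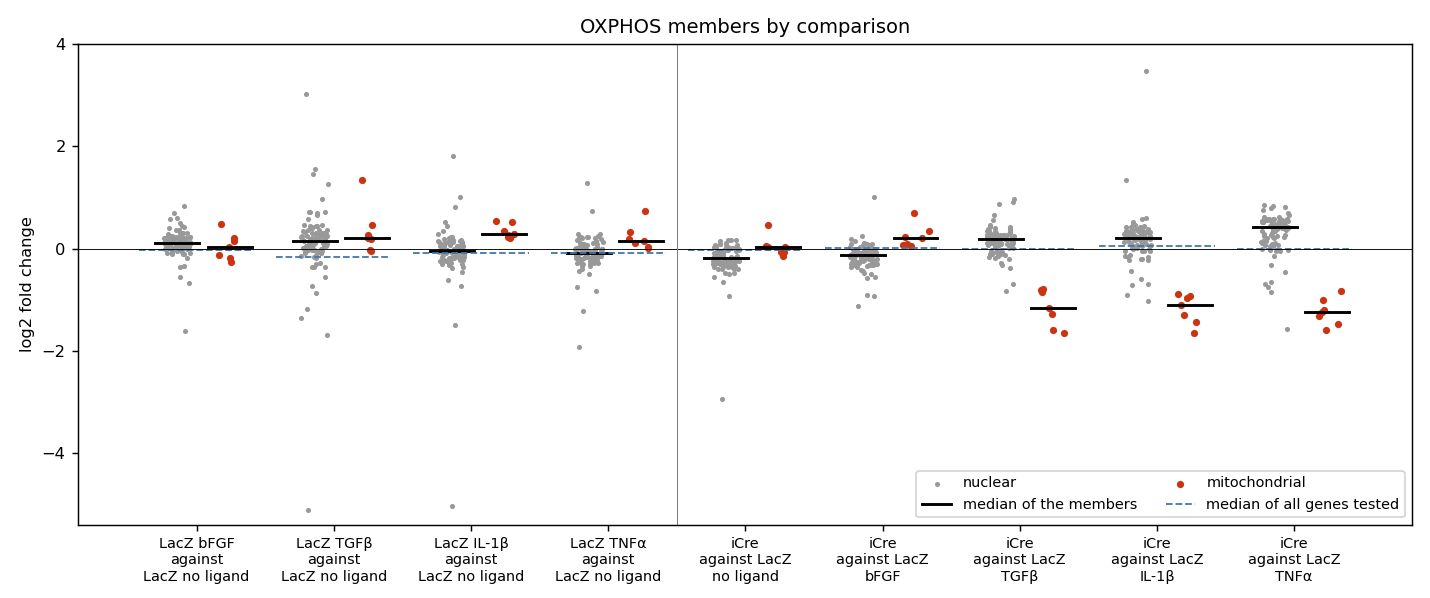
Log2 fold change of each nuclear (grey) and mitochondrially encoded (red) member in the 4 comparisons of a ligand with Con in LacZ and the 5 comparisons of iCre with LacZ; black lines mark the medians of the members and blue dashed lines the median of all genes tested. In iCre with TGFβ, IL-1β and TNFα the 7 mitochondrially encoded members lie at or below −0.80, with medians of −1.16, −1.10 and −1.23.

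mt-Nd1 was at 1370, 1152, 929.8 and 846.9 CPM in LacZ with TGFβ and at 496.1, 485.2, 420.3 and 401.3 CPM in iCre with TGFβ (log2 fold change −1.28 ± 0.15 SE, edgeR adjusted p = 0.000718). Under IL-1β it was at 1236, 1115, 1116 and 1097 CPM in LacZ and at 468.7, 564.4, 303.3 and 381.4 CPM in iCre (log2 fold change −1.43 ± 0.18 SE, edgeR adjusted p = 0.000522). With TNFα the libraries held 1137, 974.8, 943.9 and 919.7 CPM (LacZ) and 513.8, 412.2, 391.5 and 349.8 CPM (iCre) (log2 fold change −1.23 ± 0.14 SE, edgeR adjusted p = 0.000353). None of the 12 iCre libraries reached the lowest of the other 28, since mt-Nd1 ran from 303.3 to 564.4 CPM in the 12 and from 633.9 to 1370 CPM in the 28. In Con (814.8 ± 134.3 CPM in iCre, 792.7 ± 92.8 in LacZ) and with bFGF (946.4 ± 120.6 and 905.8 ± 121.4 CPM) the iCre and LacZ libraries overlapped (edgeR adjusted p = 0.958 and 0.906).

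mt-Nd2 and mt-Nd5, 2 more membrane subunits of complex I, were also separate between the 12 and the 28 libraries, with 160.7 to 307.4 against 439.4 to 922.5 CPM for mt-Nd2 and 338.7 to 786 against 893.9 to 1646 CPM for mt-Nd5. mt-Co1 ran from 1102 to 2420 CPM in the 12 and from 2069 to 4207 CPM in the 28, with 4 of the 28 libraries inside the range of the 12. mt-Nd4 and mt-Cytb had 2 such libraries each and mt-Nd6 had 7. The mitochondrial ribosomal RNAs, which are no members, were also lower in the 12, with medians of 39.56 against 92.87 CPM for mt-Rnr1 and 69.33 against 170.5 CPM for mt-Rnr2, and 9 and 1 of the 28 libraries overlapped. The log2 fold changes of mt-Co1 between iCre and LacZ were −0.80 for TGFβ, −0.98 for IL-1β and −1.19 for TNFα (edgeR adjusted p = 0.0301, 0.00456 and 0.00146), and the groups overlapped slightly with TGFβ. mt-Cytb fell by 0.84, 0.94 and 0.83 on the log2 scale (edgeR adjusted p = 0.0178, 0.00787 and 0.022). mt-Nd6, with levels of a few CPM, differed by −1.64 with TGFβ and −1.33 with TNFα (edgeR adjusted p = 0.0117 and 0.00685) and by −1.10 with IL-1β, where it missed the threshold (adjusted p = 0.0557). The number of mitochondrially encoded members called fell to 4, 3 and 4 with TGFβ, IL-1β and TNFα when replicate 3 was left out, and to 3 with TGFβ without replicate 1 or without replicate 4. With the replicate block, all 7 were lower with each of the 3 ligands.

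**Figure D4:**
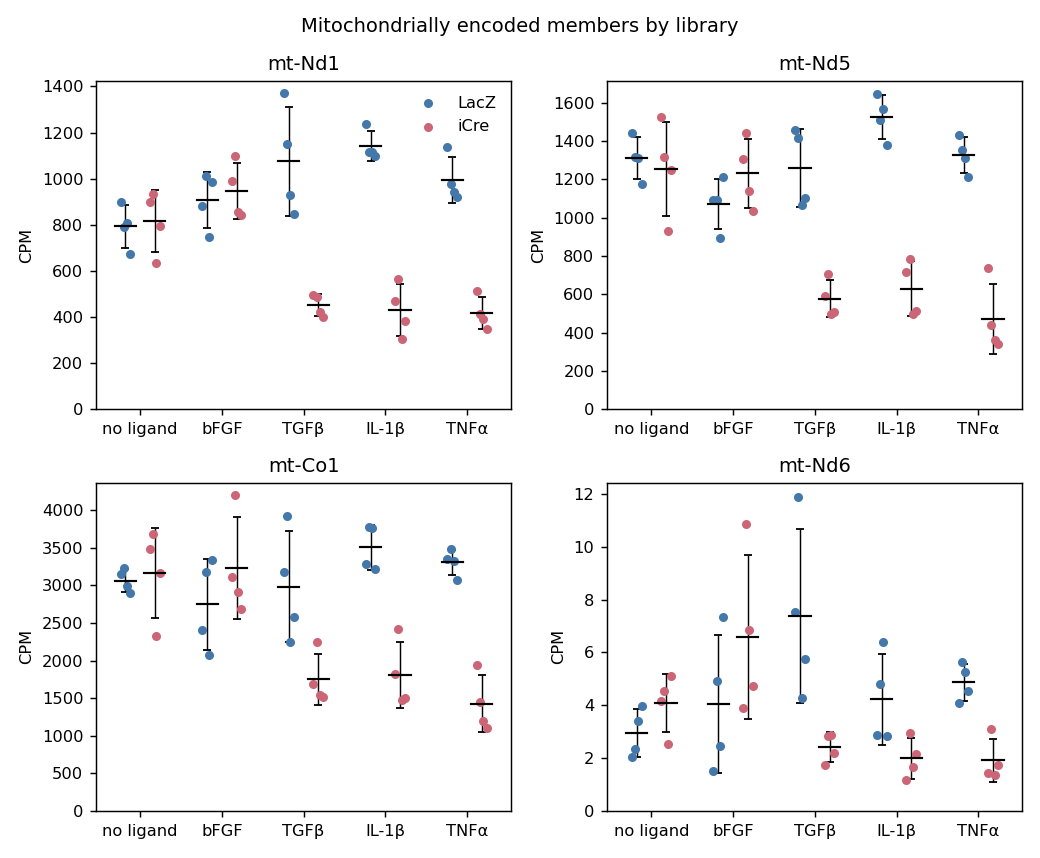
CPM (linear axis from 0) of mt-Nd1, mt-Nd5, mt-Co1 and mt-Nd6 in each library, by ligand, for LacZ (blue) and iCre (red); bars are the mean ± SD of 4 libraries. mt-Nd1 stays at 564.4 CPM or less in the 12 iCre libraries given TGFβ, IL-1β or TNFα and at 633.9 CPM or more in the other 28.

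The nuclear members that were higher in iCre came from 5 of the 6 classes with IL-1β and from all 6 with TNFα. With TNFα, 27 of 36 members of complex I, 3 of 8 of its assembly factors, 2 of 4 of complex II, 6 of 9 of complex III, 10 of 19 of complex IV and 14 of 17 of complex V were higher. With IL-1β the counts were 14, 2, 0, 4, 5 and 7 in the same order, and with TGFβ 7, 0, 0, 0, 2 and 3. Removing 1 replicate number moved these counts: without replicate 3 the nuclear members called were 1 for TGFβ, 7 for IL-1β and 38 for TNFα, without replicate 4 they were 1 with TGFβ, and without replicate 1 they were 4 for TGFβ and 19 for IL-1β. The share of all genes called in such fits is not given here, so these falls cannot be set against it. With the replicate block, 33 nuclear members were higher and 4 lower with TGFβ (9.67% and 11.1% of all genes), 46 and 7 with IL-1β (14.6% and 14.9%), and 64 and 2 with TNFα (17.1% and 15.1%). With total-count scaling, the IL-1β counts were 51 higher and 2 lower (11.2% and 6.56% of all genes).

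Uqcrh was at 76.98, 87.69, 78.38 and 73.45 CPM in LacZ with TNFα and at 120.4, 151.4, 145.6 and 132 CPM in iCre, without overlap (log2 fold change 0.82 ± 0.10 SE, edgeR adjusted p = 0.000363). Under IL-1β it was at 88.22, 87.62, 83.15 and 86.73 CPM in LacZ and at 132.1, 138.8, 131.8 and 128.2 CPM in iCre (log2 fold change 0.60 ± 0.07 SE, edgeR adjusted p = 0.000392). In both cases the iCre libraries lay above the Con libraries of LacZ (99.39 to 127.1 CPM) with 1 exception at 120.4 CPM. Atp5k showed higher values in iCre with TGFβ (35.87 ± 3.04 against 25.54 ± 2.82 CPM), IL-1β (32.41 ± 1.78 against 21.42 ± 1.30 CPM) and TNFα (37.13 ± 4.74 against 21.83 ± 0.85 CPM; SD, n = 4), with log2 fold changes of 0.46, 0.58 and 0.79 (edgeR adjusted p = 0.0242, 0.00166 and 0.000653). Uqcr11, a small subunit of complex III, was higher by 0.84 with TNFα and 0.49 with IL-1β on the log2 scale, and Atp5g1 by 0.75 with TNFα and 0.43 with TGFβ. Cox5a was higher with TNFα alone, at 61.39, 74.72, 68.92 and 82.36 CPM in iCre against 57.38, 54.66, 55.39 and 58.49 CPM in LacZ (log2 fold change 0.37 ± 0.09 SE, edgeR adjusted p = 0.0154).

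Ndufaf4 and Atp5s, a factor linked to ATP synthase, were the only nuclear members lower in iCre in these comparisons in edgeR without the replicate block. DESeq2 called 4, 6 and 2 nuclear members lower with TGFβ, IL-1β and TNFα (8.72%, 12% and 16% of all genes). With the block, Atp5f1 and Ndufb6 were also lower with TGFβ, and Atp5f1, Ndufa4l2, Ndufb4, Ndufc2 and Uqcrb with IL-1β. Ndufaf4 was at 12.5, 10.51, 14.34 and 14.38 CPM in iCre with TGFβ against 24.01, 19.78, 23.21 and 22.73 CPM in LacZ (log2 fold change −0.82 ± 0.13 SE, edgeR adjusted p = 0.00313), and lower by 0.91 with IL-1β and 0.69 with TNFα. Atp5s was at 4.035, 3.663, 4.231 and 3.927 CPM in iCre with TGFβ against 6.181, 6.844, 6.063 and 5.947 CPM in LacZ (log2 fold change −0.69 ± 0.15 SE, edgeR adjusted p = 0.0189), and lower by 0.72 with IL-1β and 0.85 with TNFα. Neither gene's iCre libraries overlapped those of LacZ in any of the 3 comparisons. Transcripts of both are poor in GC for nuclear members, at 39.48% for Ndufaf4 and 40.21% for Atp5s.

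The fold changes of the members followed transcript GC in these 3 comparisons. Among the 93 nuclear members, the 31 with the lowest GC (36.72% to 48.76%) had median log2 fold changes of −0.05 for TGFβ, 0.01 for IL-1β and 0.16 for TNFα, and the 31 with the highest GC (54.35% to 63.35%) had 0.27, 0.32 and 0.49. Members higher in iCre numbered 1, 2 and 11 among the 31 with the lowest and 7, 16 and 25 among the 31 with the highest GC. Over the 93 genes, which share libraries and are not independent, Pearson's r between GC and log2 fold change was 0.481 for TGFβ, 0.315 for IL-1β and 0.413 for TNFα, and Spearman's rho 0.607, 0.505 and 0.391. Protein-coding genes in general, nuclear members among them, moved likewise: 843 genes with less than 40% GC had medians of −0.79, −0.76 and −0.78, and 911 with at least 60% GC had 0.32, 0.31 and 0.34. The 7 mitochondrially encoded members, all below 40% GC, had medians of −1.16, −1.10 and −1.23, lower than those of the 843 genes in each comparison.

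When the smooth trend with GC of each library was removed, 0 of 7 mitochondrially encoded members differed between iCre and LacZ for any of these 3 ligands, and their medians were −0.13, −0.28 and −0.25. mt-Nd1 then had log2 fold changes of −0.31, −0.48 and −0.25 (edgeR adjusted p = 0.516, 0.102 and 0.243). mt-Nd2, mt-Nd4 and mt-Nd6 lie below the GC content at which the correction is held constant (36.39%, 36.27% and 36.28% in the 3 comparisons), so for them it is extended from other genes. With the correction and the replicate block in the same fit, 1 was higher and 2 lower for TGFβ, 0 and 4 for IL-1β, and 0 and 3 for TNFα. Nuclear members higher after correction numbered 2 for TGFβ, 15 for IL-1β and 49 for TNFα and 0 were lower. Of all 24970 genes in these fits, 77, 1050 and 3122 were higher and 73, 1074 and 2284 lower. Calls in either direction were 0.601%, 8.51% and 21.6% of all genes. With the block as well, 12 nuclear members were higher and 1 lower, 27 and 3, and 48 and 0, against calls in either direction for 8.09%, 22% and 27.6% of all genes. The medians of the nuclear members after correction alone were 0.07, 0.14 and 0.31. The relation of the 93 fold changes with GC turned negative after correction, with Pearson's r of −0.39, −0.171 and −0.204 and Spearman's rho of −0.308, −0.268 and −0.257, so the trend over all genes removed more than the trend among the members.

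Named members split under the correction. Uqcrh kept log2 fold changes of 0.57 with IL-1β and 0.78 with TNFα (edgeR adjusted p = 0.000979 and 0.000902), Atp5k of 0.42 and 0.61 (adjusted p = 0.0195 and 0.00462), Atp5g1 of 0.84 with TNFα (adjusted p = 0.000935), and Cox5a of 0.37 with TNFα (adjusted p = 0.0289). Ndufs1, with 45.13% GC, went from 0.37 to 0.54 with TNFα (adjusted p = 0.00111). Cox6a1 (0.23, adjusted p = 0.0708), Cox4i1 (0.22, adjusted p = 0.0899), Cox8a (0.20, adjusted p = 0.103) and Atp5a1 (0.18, adjusted p = 0.292) no longer passed with TNFα. Ndufaf4 and Atp5s no longer differed: Ndufaf4 had −0.09 for TGFβ, −0.20 for IL-1β and 0.04 for TNFα, and Atp5s −0.05, −0.09 and −0.21. Since the GC slope, the library numbers and the 3 iCre groups coincide, a change of these transcripts in the cells and a change in how the libraries were made cannot be told apart, and no comparison of these groups can be made without the 12 libraries.

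**Figure D5:**
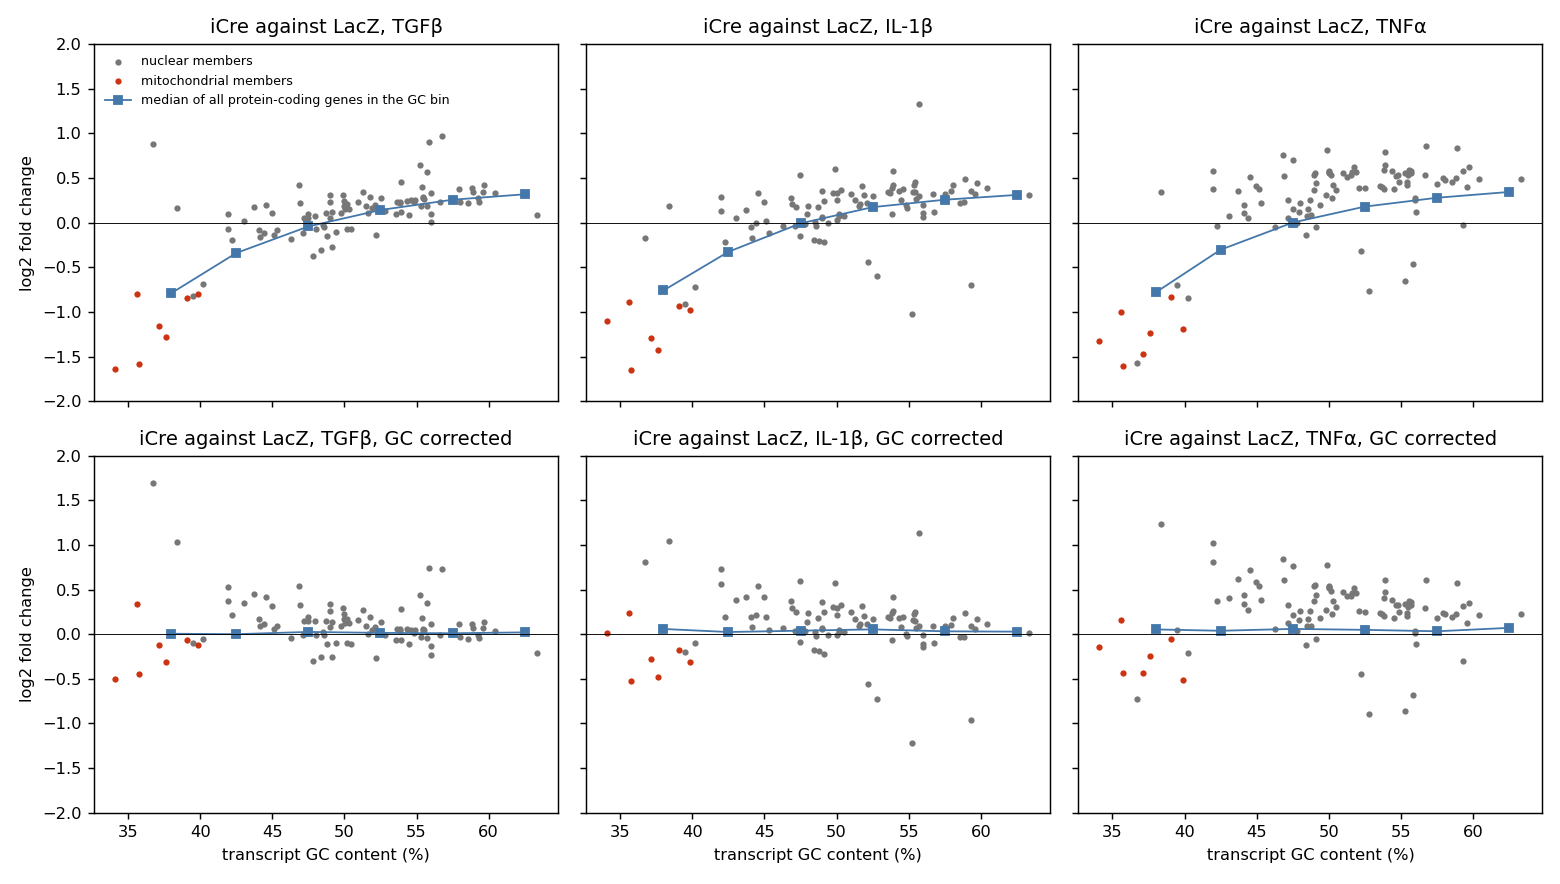
Log2 fold change (iCre against LacZ) of nuclear (grey) and mitochondrially encoded (red) members against transcript GC (percent) with TGFβ, IL-1β and TNFα, before (top) and after (bottom) the GC correction; the blue line is the median of all protein-coding genes except mitochondrially encoded ones by GC class. The axis ends at −2 and 2 and leaves out Cox8b with IL-1β (3.48 before and 3.30 after correction); the red points lie at −1.65 to −0.80 before correction.

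Whether the effect of a ligand differs between iCre and LacZ was tested as an interaction over 16 libraries, which share their Con libraries with the comparisons above and with each other. For bFGF, 0 of 100 members passed, as did 0% of all genes, while 2 nuclear members and 765 of all genes had an unadjusted p under 0.05, and DESeq2 also called 0 members. For TGFβ, 22 nuclear members had a higher and 2 a lower effect in iCre and 4 of 7 mitochondrially encoded members a lower effect, against 0.893% higher and 3.62% lower among all genes. For IL-1β the numbers were 37, 2 and 5 (2.76% and 4.95% of all genes), and for TNFα 61, 1 and 6 (8.38% and 7.7%). Each term is the iCre against LacZ difference with the ligand less that in Con, where the nuclear median was −0.19. Nuclear medians of the terms were 0.32, 0.35 and 0.54 for TGFβ, IL-1β and TNFα. Those of iCre against LacZ with the ligand were 0.18, 0.21 and 0.41. The terms thus include the difference in Con, which all of them share. Atp5k had the interaction terms 0.85, 0.98 and 1.17 on the log2 scale (edgeR adjusted p = 0.00137, 4.5e-05 and 3.27e-05), which stayed past the threshold after GC correction (0.66, 0.79 and 1.01; adjusted p = 0.0451, 0.000915 and 0.000271). mt-Nd1 had terms of −1.32, −1.46 and −1.27 (edgeR adjusted p = 0.0018, 0.000832 and 0.000478), and after GC correction −0.39, −0.59 and −0.32 (adjusted p = 0.621, 0.183 and 0.35). Over all members the calls after GC correction were 4, 26 and 53, against 0.457%, 3.06% and 11% of all genes. The 28 calls for TGFβ became 3 without replicate 4 and 7 without replicate 3, and the 44 for IL-1β became 18 without replicate 3, 20 without replicate 4 and 26 without replicate 2, again without the share of all genes.

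Other genes of the pathway were counted from lists of known roles, against the same percentages of all genes as the members. For ligands in LacZ, the counts of each list are given for TGFβ alone and do not describe the other ligands. The 78 mitochondrial ribosomal proteins, which translate the mitochondrially encoded members, had 29 higher and 8 lower with TGFβ in LacZ, and in iCre against LacZ 7 and 1 for TGFβ, 23 and 1 for IL-1β, and 49 and 1 for TNFα. Mrps6, a protein of the small ribosomal subunit, fell with IL-1β (log2 fold change −1.01 ± 0.17 SE, edgeR adjusted p = 0.00235), TGFβ (−0.62, adjusted p = 0.0166) and TNFα (−0.72, adjusted p = 0.012) and rose with bFGF (0.78, adjusted p = 0.0337). It was higher in iCre with IL-1β (1.005 ± 0.13, adjusted p = 0.000692) and TNFα (1.64 ± 0.13, adjusted p = 6.87e-05). Of 19 factors of mitochondrial RNA processing, 11 were higher and 1 lower with TGFβ in LacZ, and in iCre 0 and 3 for TGFβ, 1 and 2 for IL-1β, and 4 and 2 for TNFα. The lower ones included Pnpt1, the mitochondrial polynucleotide phosphorylase, by 0.76, 0.80 and 1.11 on the log2 scale, and Mtpap, the mitochondrial poly(A) polymerase, by 0.62, 0.51 and 0.72. Of 19 genes of mitochondrial DNA transcription and maintenance, 5 were higher and 4 lower with TGFβ in LacZ, and 1 and 1, 5 and 1, and 7 and 1 in iCre with TGFβ, IL-1β and TNFα, with Mterf3, a factor of mitochondrial transcription and ribosome assembly, lower by 0.66, 0.65 and 0.70. These lists were read in the same 12 libraries, and their lower calls were lost with the GC correction, except those of RNA processing with TNFα. After it, Pnpt1 had log2 fold changes of −0.17, −0.22 and −0.51 (edgeR adjusted p = 0.68, 0.463 and 0.0343). Mtpap had −0.22, −0.105 and −0.32 (adjusted p = 0.511, 0.545 and 0.0273) and Mterf3 −0.27, −0.27 and −0.31 (adjusted p = 0.392, 0.114 and 0.0581). Mrps6 kept 0.84 with IL-1β and 1.46 with TNFα (adjusted p = 0.00304 and 0.000206). Higher and lower calls after correction were 3 and 0, 20 and 0, and 45 and 0 among the ribosomal proteins. They were 0 and 0, 1 and 0, and 6 and 2 among the RNA processing factors, and 1 and 0, 4 and 0, and 5 and 0 among the genes of mitochondrial DNA.

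Regulators of the nuclear members numbered 14, with 3 higher and 2 lower with TGFβ in LacZ. Pprc1, a coactivator of the PGC-1 family, rose with TGFβ (log2 fold change 1.66 ± 0.08 SE, edgeR adjusted p = 1.07e-06), IL-1β (0.97, adjusted p = 0.000173), TNFα (0.79, adjusted p = 0.000141) and bFGF (0.49, adjusted p = 0.0228). Esrra, the receptor ERRα, fell with TGFβ (−0.59, adjusted p = 0.00112), IL-1β (−0.42, adjusted p = 0.0411) and TNFα (−0.51, adjusted p = 0.00365). In iCre 1 and 1, 0 and 2, and 1 and 3 regulators were higher and lower. Cycs, the cytochrome c that carries electrons from complex III to complex IV, rose with TGFβ by 1.69 on the log2 scale (edgeR adjusted p = 1.06e-05), with bFGF by 1.10 (adjusted p = 0.00557), with IL-1β by 0.74 (adjusted p = 0.00274) and with TNFα by 0.61 (adjusted p = 0.0104). Of 26 electron carriers and exchangers, 6 were higher and 5 lower with TGFβ in LacZ, and in iCre 0, 3 and 12 were higher and 0 lower. From this list, Coq8a fell in LacZ with TGFβ (log2 fold change −3.045), IL-1β (−1.62), bFGF (−1.561) and TNFα (−1.005), and Aox1 with TGFβ (−2.923). Of 26 genes of the citric acid cycle and pyruvate dehydrogenase, 13 were higher and 7 lower with TGFβ in LacZ, and in iCre 0 and 2, 5 and 5, and 10 and 5 differed. In LacZ Pdk1, an inhibitory kinase of pyruvate dehydrogenase, was up by 1.49 under TGFβ, 1.625 under IL-1β, 0.77 under bFGF and 0.75 under TNFα. Pdk4, from the same list, fell with these ligands (log2 fold changes −1.232, −1.33, −1.619 and −1.333 in the same order). Pdk2 fell with IL-1β (−0.4493), bFGF (−0.9043) and TNFα (−0.6657). Of 43 assembly factors outside the symbol rule, 12 were higher and 7 lower with TGFβ in LacZ, and 0 and 4, 6 and 5, and 15 and 2 in iCre. After GC correction the higher and lower calls in iCre with TGFβ, IL-1β and TNFα were 0 and 0, 0 and 0, and 2 and 2 for the regulators. They were 1 and 0, 2 and 0, and 9 and 0 for the carriers. The citric acid cycle had 0 and 0, 4 and 3, and 13 and 3, and the assembly factors 1 and 0, 4 and 3, and 8 and 1. In Con and with bFGF, edgeR called 0 genes of these 7 lists between iCre and LacZ, near the share of all genes called (0.0754% and 0%). An unadjusted p under 0.05 was found for 21 and 17 of the 78 ribosomal proteins and for 11 and 2 of the 26 citric acid cycle genes. With the replicate block, 1 ribosomal protein was higher and 12 were lower in Con, and 0 and 12 with bFGF.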

How the data were processed

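Fibroblast RNA was selected for poly(A) and sequenced as single reads. The authors checked reads with FastQC, aligned them with STAR to mm10 and counted them per gene with HTSeq 0.10.0 (versions per the labels), and deposited raw counts for 55414 genes in 40 libraries; the annotation release and the strand setting are not given in the sources used here. The labels and the methods name different library kits. Symbols, coordinates and transcript GC were taken from GENCODE M21, which holds 52133 of the gene IDs and 99.59% of the counts.

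Groups and replicate numbers came from the labels, which do not say whether replicates are separate animals or cultures, so p-values measure the spread between these libraries. Genes with at least 10 counts in total (25210) entered edgeR's quasi-likelihood test (edgeR 4.0.16, R 4.3.3), with TMM scaling, over 8 libraries per pair of groups and 16 per interaction, and p-values were adjusted by Benjamini-Hochberg over all genes, with a threshold of 0.05. CPM values use the same scaling. Same-numbered libraries deviated together in every pair of groups (correlations of 0.366 to 0.849 over 10774 genes, against means of at most 0.0233 with other numbers), so the numbers were treated as pairs in an alternative with a replicate block. The GC correction took a natural spline of 5 degrees of freedom per library, fitted on genes of at least 1 CPM and held constant beyond the percentiles 0.5 and 99.5 of GC, and entered the fit of the 24970 genes of known GC as an offset. Other alternatives were DESeq2 1.42.0, RLE scaling, scaling without mitochondrial genes, no filter, filterByExpr, leaving out each replicate number and, chosen after seeing the data, total-count scaling. Scripts were tested on simulated data. The members, the lists and the rule for named genes were chosen with earlier results of these data known. Named were Cox5a and mt-Nd1, 5 mitochondrially encoded genes, the isoforms of complex IV, 10 core genes where they passed, up to 4 nuclear members per direction and comparison with the largest change among called members of at least 1 CPM without overlap, and up to 2 genes per direction in each list. Map3k7, Lyz2, Rgs5, mt-Rnr1 and mt-Rnr2, and the members mt-Nd2, mt-Nd4, mt-Nd5, Ndufb6, Ndufb4, Ndufc2, Uqcrb and Atp5f1, were named outside this rule after their values were seen.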

Additional observations from a re-analysis of the deposited data

Results flagged for a closer look

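Replicate 1 of the LacZ libraries with IL-1β stood apart from the other 3 in mt-Nd1, at 1236 CPM, with a gap to the next library of 0.863 of the group's range; chance marks about 1 in 20 groups of 4 in this way. The effect of a ligand differed between iCre and LacZ, by the interaction in edgeR, for 28 members under TGFβ, 44 under IL-1β and 68 under TNFα, and the 12 iCre libraries of these ligands are the ones with the positive slope on GC.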

How the results depend on the processing

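Counts of members past the threshold moved by over 1.5 times under several settings, and the cause was not tested. With TGFβ in LacZ, total-count scaling turned the direction of the nuclear members (53 called, 8 higher and 45 lower) and gave 3 called mitochondrially encoded members; it gave 3 nuclear calls for bFGF, 40 for IL-1β and 37 for TNFα, and 53 for iCre against LacZ with IL-1β. Under the same scaling the TGFβ effect was −0.38 for Cox8a, −0.27 for Ndufv1, −0.37 for Sdha, −0.0496 for Sdhb, −0.24 for Uqcrfs1 and −0.0126 for Atp5a1. Ndufaf4 in iCre against LacZ with TNFα was 0.0448 with GC correction and 0.0151 with block and correction. In LacZ, DESeq2 called 18 nuclear members with bFGF and 23 with TNFα and 2 mitochondrially encoded ones with each of TGFβ, IL-1β and TNFα; for iCre against LacZ it called 24 in Con, 13 with bFGF and 28 with TGFβ, and 49 members for the TGFβ interaction. RLE scaling called 2 mitochondrially encoded members with TGFβ and 1 with TNFα, filterByExpr 2 and 2, with 22 nuclear members with TNFα, 1 in Con and 27 with TGFβ for iCre against LacZ, and no filter 1 in Con. GC correction called 2, 2 and 1 mitochondrially encoded members with TGFβ, IL-1β and TNFα in LacZ, 0 in each iCre comparison, 2 and 15 nuclear members in iCre with TGFβ and IL-1β, and 4 and 26 members for these interactions. The replicate block called 26, 23 and 32 nuclear members with bFGF, IL-1β and TNFα in LacZ, and 35, 26, 37 and 53 in iCre in Con and with bFGF, TGFβ and IL-1β; mitochondrially encoded calls were 1, 3, 6 and 4 with bFGF, TGFβ, IL-1β and TNFα in LacZ and 2 in iCre with bFGF. Block and GC correction together called 19, 24 and 35 nuclear members with bFGF, IL-1β and TNFα in LacZ, 30 in Con and 26 with bFGF in iCre (27.6%, 34%, 36.2%, 15.2% and 14.3% of all genes), 1, 4, 7 and 4 mitochondrially encoded members in LacZ, 3, 3 and 3 in iCre with bFGF, TGFβ and TNFα, and 13 for the TGFβ interaction (1.65% of all genes). Scaling without mitochondrial genes moved none of the 22 counts.

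Leaving out 1 replicate number at a time gave 0 to 12 nuclear calls with bFGF, 25 to 40 with TGFβ, 5 to 13 with IL-1β and 5 to 12 with TNFα in LacZ, 0 to 1 mitochondrially encoded calls for TGFβ and for IL-1β and 0 to 0 with bFGF and TNFα. For iCre against LacZ it gave 0 to 3 nuclear calls in Con, 0 to 1 with bFGF, 1 to 16 with TGFβ, 7 to 27 with IL-1β and 38 to 63 with TNFα, with 3 to 7, 3 to 7 and 4 to 7 mitochondrially encoded calls for the last 3 ligands. Interactions ranged from 0 to 0, 3 to 25, 18 to 31 and 44 to 65. Shares of all genes are not given for these fits, nor beside the RLE, filterByExpr and no-filter counts above. Whether the members' calls moved more than those of all genes was therefore not tested. Mitochondrially encoded members with near-identical copies and members of a few counts are limited by counting.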
